A study of Mus musculus with 5 samples.

Results

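Nuclear genes for mitochondrial respiration, the mitochondrial ribosome and mitochondrial transport were followed in mouse pancreas during acute pancreatitis. Genes were taken by symbol: every symbol starting with Nduf, Sdh, Uqcr, Cox with a digit, Atp5, Mrpl, Mrps, Timm, Tomm, Vdac or Slc25, together with Hspd1, Hspe1 and Cycs. This gave 23 of the 1457 genes in the table. They comprised 8 genes of the respiratory chain, 9 of the mitochondrial ribosome and 6 of carriers, channels, protein import and chaperonins. No symbol starting with Sdh was found, nor Cycs, which encodes cytochrome c.

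The libraries were made from poly(A) RNA of whole pancreas of female C57BL/6 mice aged 8 weeks. Repeated intraperitoneal injections of caerulein (50 µg/kg), a peptide that acts like cholecystokinin, induced acute pancreatitis, and the pancreas was collected 24 h after injections began. The groups were wild-type mice given saline (1 library, replicate 1), wild-type mice given caerulein (2 libraries, replicates 1 and 2) and miR-21-/- mice given caerulein (2 libraries, replicates 1 and 3). There was no knockout saline group and the saline group had no replicate. The labels do not say how the miR-21 allele was removed, or that each library came from a separate mouse, so the p-values may measure technical spread only.

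Most proteins of mitochondria are encoded in the nucleus, made in the cytosol and imported through the TOM and TIM complexes. The respiratory chain passes electrons from complex I or II through complex III and cytochrome c to complex IV, and complex V (ATP synthase) uses the resulting proton gradient to make ATP. The mitochondrial ribosome translates the few respiratory subunits encoded in mitochondrial DNA, so both genomes supply the same complexes. Pancreatic acinar cells spend ATP on enzyme synthesis, secretion and calcium pumping, and loss of mitochondrial function in these cells is a known feature of pancreatitis.

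The values carry no stated unit, and whether they were divided by transcript length is not known, so levels are compared between libraries and not between genes. Genes in the table follow a falling order of wild-type caerulein mean over saline (0 out of order), and for 1412 of 1457 that mean was above saline. At least 1 caerulein library lay 2.528-fold or more from saline for each gene. The table thus holds only genes that differed from this saline library, and the 23 genes are not a full account of any complex. RefSeq lists 49 protein-coding symbols starting with Nduf, against 3 here, and 49 starting with Mrpl, against 6 here. The lowest value, 0.01, stands for no measured signal in 540 genes in saline and in 31 to 89 genes in each caerulein library. Among the 23 genes it occurred for 6 in saline (Ndufb6, Uqcrb, Mrpl43, Mrps9, Timm8a1 and Vdac3) and for 2 in wild-type caerulein replicate 2 (Atp5f1 and Hspd1). No fold is given against it.

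The caerulein libraries did not group by genotype. Across the 23 genes, wild-type replicate 1 was most like knockout replicate 3 (Spearman's rho 0.86), while the second wild-type library resembled knockout replicate 1 (rho 0.67). Within a genotype rho was only 0.30 for the wild type and 0.33 for the knockout. Over all 1429 genes tested, these pairs gave 0.73, 0.74, 0.35 and 0.45, in the same order. These correlations are over genes, which share libraries and are not replicates, and the labels name no batch.

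**Figure D1:**
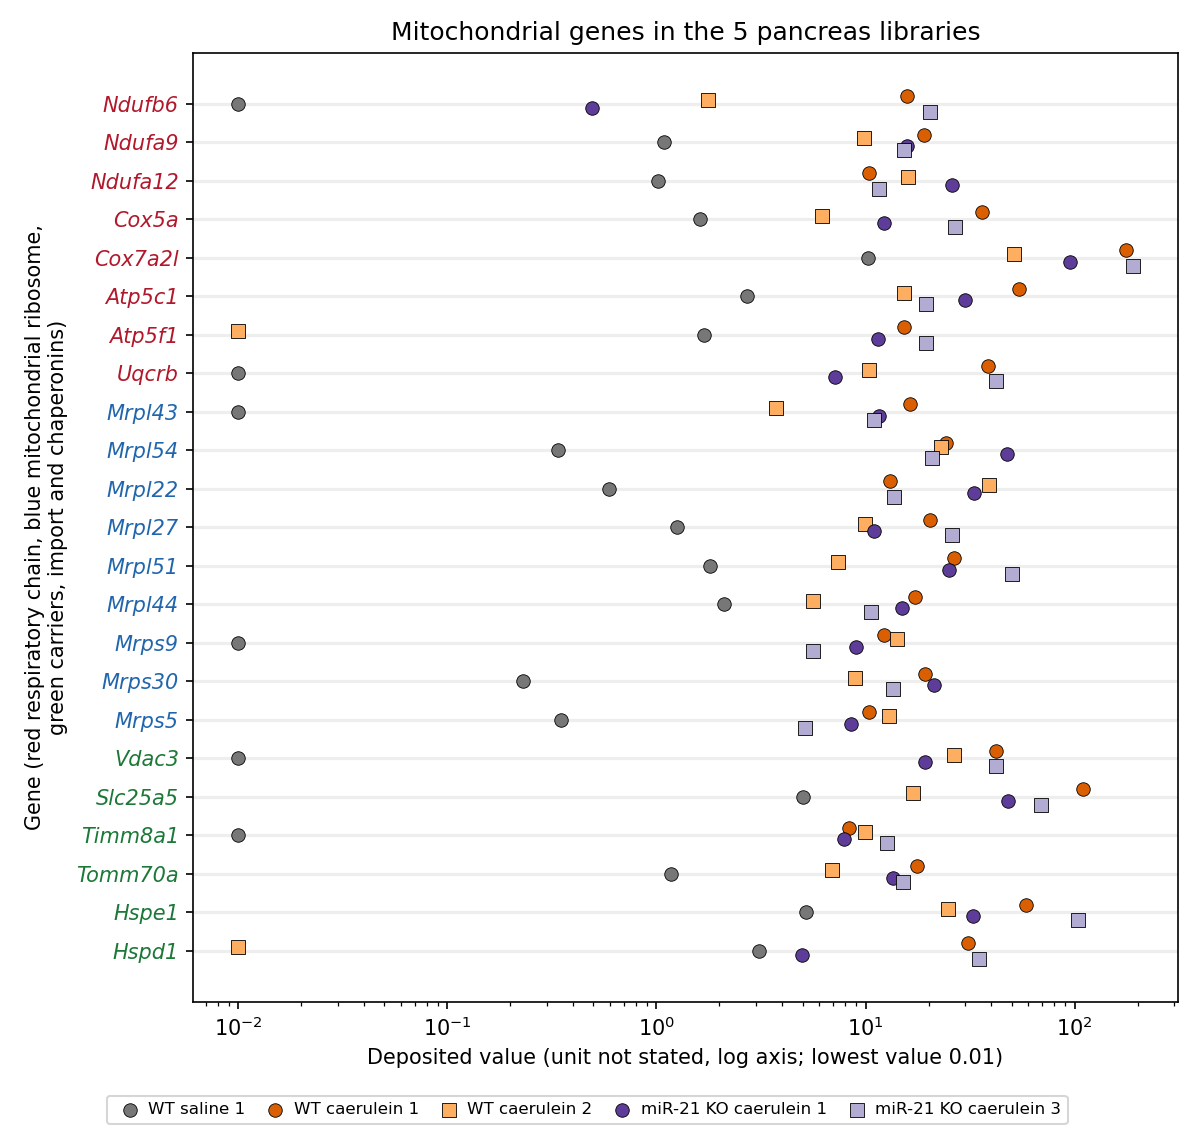
Deposited value (horizontal log axis, unit not stated) of each of the 23 genes (rows) in the 5 libraries, with points offset vertically for legibility. Saline values lie left of all 4 caerulein values for 21 genes, and Atp5f1 and Hspd1 are at 0.01 in wild-type caerulein replicate 2.

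The first comparison asked how these genes stood in wild-type pancreas a day after caerulein began. Respiratory chain, mitochondrial ribosome and transport genes were higher than in saline, like most genes of the table. Limma called 19 of 23 genes higher and 0 lower (adjusted p under 0.05 over all genes tested), where 57.3% of 1429 tested genes were called higher. By group, 6 of 8 respiratory chain genes, 8 of 9 mitochondrial ribosome genes and 5 of 6 transport genes rose. The median log2 differences, on the log2(value + 1) scale, were 2.80, 3.22 and 2.77, against 2.71 for all tested genes. The table holds only genes that differed from this 1 saline library, so a call largely restates how the table was made and is not independent evidence of a rise; "rose" is used only for genes called higher. Quantile normalization left 0 of the 23 genes called higher (0 of 1436 tested genes), and equal library sums left 5 (251 of 1426), with 14 of 23 differences above 0 under either. Those 5 (Mrpl43, Mrps9, Timm8a1, Uqcrb and Vdac3) were all at 0.01 in saline, a value that scaling hardly moves. Over the 17 genes measured above 0.01 in saline the median was 2.78, against 2.45 for all such genes.

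In complex I, which takes electrons from NADH, 2 of 3 genes rose. Ndufa9, an accessory subunit, was 1.09 in saline. After caerulein it was 19.01 (replicate 1) and 9.87 (replicate 2) in the wild type, and 15.82 (replicate 1) and 15.3 (replicate 3) in the knockout, an order kept in the sentences that follow. All 4 caerulein values lay above saline and close together, and the log2 difference for wild type was 2.82 (SE 1.02; limma adjusted p = 0.0169). Ndufa12, another accessory subunit, was 1.02 in saline, 10.39 and 15.92 in the wild type and 25.87 and 11.58 in the knockout. Ndufb6, a subunit of the membrane arm, was listed at 0.01 in saline and was 15.86 and 1.76 in the wild type and 0.49 and 20.37 in the knockout. Its replicates differed 9.01-fold in the wild type and 41.6-fold in the knockout, and it did not pass the test in either genotype.

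Complex III was represented by Uqcrb, a small ubiquinone-binding subunit. It was listed at 0.01 in saline, 38.5 and 10.33 in the wild type and 7.18 and 42.17 in the knockout, and rose in both genotypes (limma adjusted p = 0.000508 and 0.000719). Of complex IV, the terminal oxidase, Cox5a was 1.62 in saline, 36.21 and 6.16 in the wild type and 12.25 and 26.89 in the knockout. Cox7a2l, placed here by symbol, was 10.29 in saline, 175.22 and 51.46 in the wild type and 94.99 and 189.53 in the knockout. Both rose, Cox7a2l by 3.09 on the log2 scale in the wild type (SE 1.18; limma adjusted p = 0.0225). For Uqcrb, Cox5a and Cox7a2l alike, wild-type replicate 1 and knockout replicate 3 held the higher value of their genotype.

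Complex V held Atp5c1, the central rotor subunit gamma, and Atp5f1 (Atp5pb in RefSeq), subunit b of the peripheral stalk. Atp5c1 was 2.71 in saline, 54.43 and 15.22 in the wild type and 29.74 and 19.52 in the knockout, a log2 difference of 3.01 for the wild type (SE 1.06; limma adjusted p = 0.0137). Atp5f1 was 1.69 in saline, 15.27 and 0.01 in the wild type and 11.41 and 19.44 in the knockout. It did not pass in the wild type, where 1 library lay above and 1 below saline, and rose in the knockout (limma adjusted p = 0.0323).

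Among the 6 large-subunit genes of the mitochondrial ribosome, 5 rose in the wild type. Mrpl54 was 0.34 in saline, 24.33 and 23.02 in the wild type and 47.36 and 20.77 in the knockout. Its wild-type mean was 69.6 times that low saline value (log2 difference 4.20, SE 1.06, limma adjusted p = 0.00103). The log2 difference was 1.39 under quantile normalization and 2.44 under equal library sums. Mrpl22 was 0.59 in saline, 13.13 and 38.74 in the wild type and 33.06 and 13.7 in the knockout (log2 difference 3.90, SE 1.06). In Mrpl22 wild-type replicate 2 and knockout replicate 1 were the high libraries, the reverse of Uqcrb. Mrpl51 was 1.81 in saline, 26.41 and 7.36 in the wild type and 24.95 and 50.2 in the knockout.

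Mrpl27 was 1.25 in saline, 20.43 and 9.97 in the wild type and 11.02 and 25.88 in the knockout. Mrpl43 was listed at 0.01 in saline, 16.22 and 3.75 in the wild type and 11.62 and 10.92 in the knockout. Mrpl44, which resembles a double-strand RNA nuclease, was 2.11 in saline, 17.25 and 5.6 in the wild type and 14.9 and 10.56 in the knockout. It had the lowest ratio of the wild-type mean to saline among the large-subunit genes with a saline value above 0.01, 5.41, and did not pass in the wild type (limma adjusted p = 0.101) or the knockout (limma adjusted p = 0.0549).

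The 3 genes named for the small subunit all rose in both genotypes. Mrps30 was 0.23 in saline, 19.3 and 8.86 in the wild type and 21.33 and 13.46 in the knockout. Its wild-type mean was 61.2 times that low saline value (log2 difference 3.52, SE 1.003, limma adjusted p = 0.00311). The log2 difference was 0.65 under quantile normalization and 2.03 under equal library sums. Mrps5 was 0.35 in saline, 10.43 and 12.92 in the wild type and 8.55 and 5.16 in the knockout. Mrps9 was listed at 0.01 in saline, 12.29 and 14.17 in the wild type and 9 and 5.62 in the knockout. In Mrps5 and Mrps9 both wild-type values lay above both knockout values.

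Of the channels and carriers, Slc25a5, an ADP/ATP translocase of the inner membrane, was 5.04 in saline, 109.55 and 16.87 in the wild type and 48.13 and 68.92 in the knockout. It rose by 2.88 on the log2 scale in the wild type (SE 1.11; limma adjusted p = 0.0238), although replicate 1 was 6.49 times replicate 2. Vdac3, a pore of the outer membrane, was listed at 0.01 in saline, 41.91 and 26.58 in the wild type and 19.23 and 42.2 in the knockout. Its limma adjusted p, 0.000167 for the wild type, was the smallest of the 23 genes.

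Import genes were few. Timm8a1, a small chaperone of the intermembrane space, was listed at 0.01 in saline, 8.29 and 9.92 in the wild type and 7.86 and 12.7 in the knockout, and had the narrowest range of the 4 caerulein libraries, 1.62-fold. Tomm70a, the outer membrane receptor for carrier precursors, was 1.18 in saline, 17.71 and 6.92 in the wild type and 13.58 and 15.06 in the knockout. Both rose in both genotypes.

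The chaperonin genes Hspd1 and Hspe1 encode the barrel and the lid that fold imported proteins in the matrix, and lie head to head. Hspe1 was 5.19 in saline, 58.57 and 24.75 in the wild type and 32.46 and 104.02 in the knockout (log2 difference 2.66 in the wild type, SE 1.10; limma adjusted p = 0.0333). Hspd1 was 3.09 in saline, 30.85 and 0.01 in the wild type and 4.96 and 34.83 in the knockout. It did not pass in either genotype. The order of the 4 caerulein libraries was the same in both genes, but only Hspd1 reached 0.01. In GENCODE M21 both genes, and also Vdac3, Atp5c1 and Slc25a5, have gene models named as their pseudogenes, so reads may have been divided between copies and these values are uncertain.

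The sequence between the starts of Hspd1 and Hspe1 is shown because the pair shares it. It spans chr1:55087933-55088147 of GRCm38.p6 (215 bases, plus strand, RefSeq), with Hspd1 read to the left and Hspe1 to the right. A further RefSeq start of Hspd1 lies outside it. Capitals mark matches, on either strand, to the ETS core CCGGAAG or the heat shock core TTCNNGAA, which overlap here. The 2 ETS matches and 2 heat shock matches lie next to each other.
Hspd1-Hspe1: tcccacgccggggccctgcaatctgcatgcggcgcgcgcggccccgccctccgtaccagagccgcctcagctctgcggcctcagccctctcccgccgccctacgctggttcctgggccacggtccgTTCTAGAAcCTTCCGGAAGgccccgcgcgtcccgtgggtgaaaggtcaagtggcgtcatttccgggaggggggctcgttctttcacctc

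Ndufb6 and Mrpl22 are shown next because their libraries stood in opposite order within each genotype. The 250 bases before each start were taken, for Ndufb6 chr4:40279422-40279671 (minus strand) and for Mrpl22 chr11:58171414-58171663 (plus strand), both of GRCm38.p6 from RefSeq. Capitals mark the ETS core and the NRF1 core TGCGCA, which reads the same on both strands. ETS-family GABP and NRF1 are known activators of nuclear genes for mitochondria. Each sequence held 1 match to each.
Ndufb6: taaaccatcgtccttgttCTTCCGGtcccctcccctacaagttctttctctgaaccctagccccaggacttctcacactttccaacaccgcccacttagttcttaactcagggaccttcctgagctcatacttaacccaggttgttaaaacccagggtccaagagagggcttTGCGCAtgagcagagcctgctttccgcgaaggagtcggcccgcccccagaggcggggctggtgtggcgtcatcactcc
Mrpl22: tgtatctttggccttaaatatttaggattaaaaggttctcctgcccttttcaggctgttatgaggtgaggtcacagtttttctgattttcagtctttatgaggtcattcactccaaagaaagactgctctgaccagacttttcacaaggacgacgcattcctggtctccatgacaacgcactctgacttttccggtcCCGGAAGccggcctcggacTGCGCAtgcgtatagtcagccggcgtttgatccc

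RefSeq windows of 250 bases before to 50 after a start were matched for 20 of the 23 genes (22 windows). The ETS core was found in the windows of 8 genes (Hspd1, Hspe1, Mrpl22, Mrpl27, Mrpl43, Mrpl51, Ndufb6 and Tomm70a), 36.4% of the 22 windows, against 15.9% of 1373 windows of genes in the table and 8.86% of all 32851 windows. Hspd1 and Hspe1 share the matching bases, so their windows count the same matches again. The NRF1 core was found for 6 genes (Atp5f1, Mrpl22, Mrpl44, Mrps9, Ndufa9 and Ndufb6), 27.3% of windows, against 14.9% and 7.76%. The YY1 core AAGATGG was found for Atp5f1 and Ndufa9 (9.09% of windows, against 7.14% and 6.34%). The heat shock core was found for Cox7a2l, Hspd1 and Hspe1 (13.6%, against 6.77% and 8.52%), where Hspd1 and Hspe1 again share them. These are matches of letters and not measured binding.

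In the second comparison, knockout caerulein was set against the same wild-type saline library, so genotype and treatment differ together. Limma called 20 of 23 genes higher and 0 lower, where 60.3% of tested genes were called higher and 0.14% lower. These were 7 of 8 respiratory chain genes, 8 of 9 mitochondrial ribosome genes and 5 of 6 transport genes. The median log2 differences of the groups were 2.93, 3.60 and 3.27, against 2.80 for all tested genes. Mrpl54 (4.60, SE 1.06), Mrps30 (3.87, SE 1.003), Mrpl22 (3.81, SE 1.06), Cox7a2l (3.58, SE 1.18) and Slc25a5 (3.28, SE 1.11) were among them. Hspe1 rose by 3.26 (SE 1.10), Ndufa9 by 2.99 (SE 1.02) and Atp5c1 by 2.76 (SE 1.06) on the same scale. Mrpl44, Hspd1 and Ndufb6 did not pass. Quantile normalization left 0 called higher (0 of 1436 tested genes), and equal library sums left 5 (232 of 1426), with 18 and 19 of 23 differences above 0. Of those 5, Mrpl43, Timm8a1, Uqcrb and Vdac3 were at 0.01 in saline, and Mrpl54 was at 0.34. Both comparisons use the same saline library and are not independent, and the limit set by how the table was made holds here too.

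In all 4 caerulein libraries 21 of 23 genes stood above saline, where 87.6% of tested genes did so. Uqcrb and Vdac3, named below, were both at 0.01 in saline. The number of genes called depended on single libraries. For wild type against saline it was 9 without wild-type replicate 1 (496 of 1419 tested genes called higher) and 8 without knockout replicate 1 (372 of 1419), although that library is in neither group. For knockout against saline it was 2, Uqcrb and Vdac3, without knockout replicate 1 (19 of 1419) and 6 without knockout replicate 3 (398 of 1423).

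The third comparison set the knockout against the wild type after caerulein. No gene of the 23 passed, where 0% of 1429 tested genes were called, and 1 of the 23 had an unadjusted p under 0.05 (0.49% of tested genes). The gene with the smallest p was Atp5f1, with a log2 difference of 1.97 (SE 0.88; limma adjusted p = 0.9997), and its wild-type replicate 2 was at 0.01. Mrpl51 differed by 1.27 (SE 0.86), Hspd1 by 1.37 (SE 0.93), Mrps9 by −0.80 (SE 0.85) and Mrps5 by −0.72 (SE 0.86). The median 95% interval of the 23 genes reached 1.69 to either side, on the log2 scale.

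Knockout and wild-type values did not overlap for 2 of 23 genes, Mrps5 and Mrps9, where 9.31% of tested genes did not overlap. Both were lower in the knockout, and neither passed. The log2 difference was above 0 in 5 of 8 respiratory chain genes, 6 of 9 mitochondrial ribosome genes and 5 of 6 transport genes, against 842 of 1429 tested genes. Their medians were 0.20, 0.30 and 0.36, with 0.10 for all tested genes. The median of the 23 genes was 0.30, became 0.87 without wild-type replicate 1 (all tested genes 0.50) and −0.38 without wild-type replicate 2 (all tested genes −0.33). Without wild-type replicate 1 the log2 differences of Atp5f1 and Hspd1 were 3.98 and 3.85, both against a single remaining wild-type value of 0.01.

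**Figure D2:**
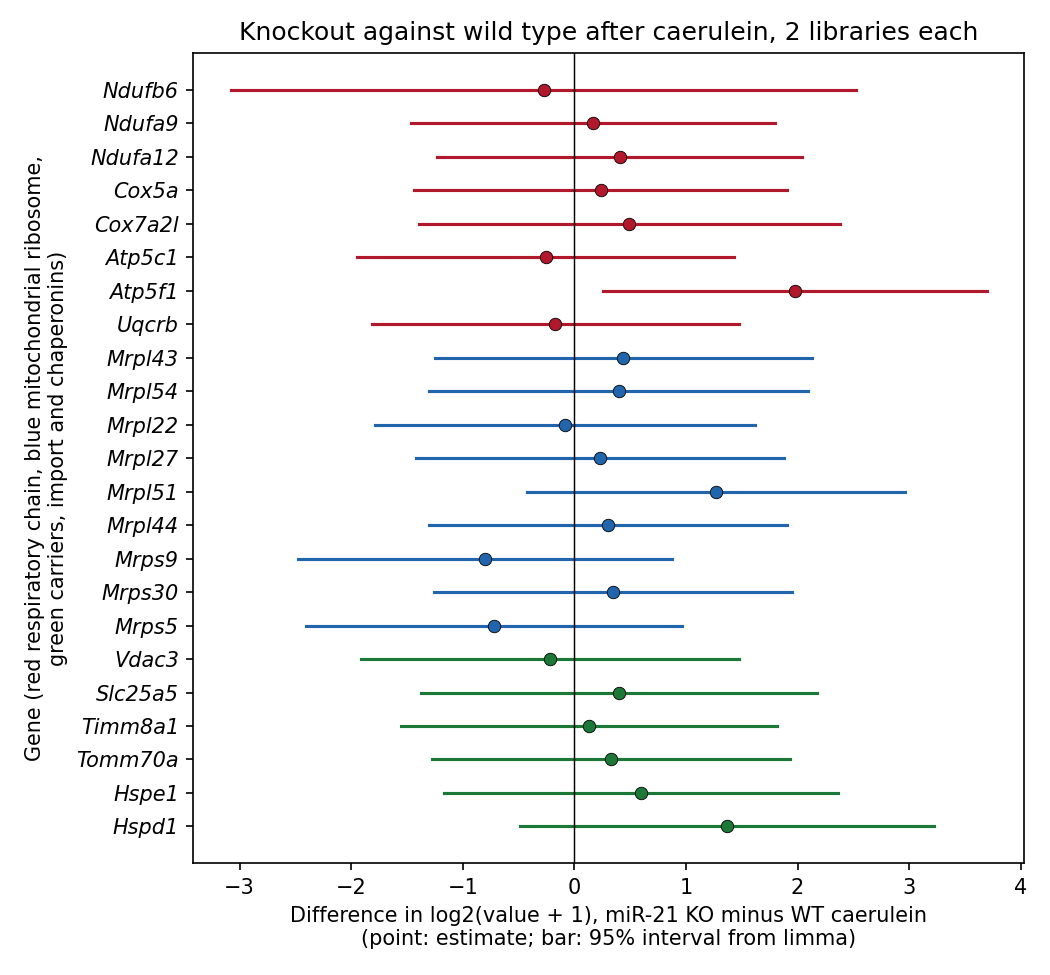
Difference in log2(value + 1) between knockout and wild-type caerulein (horizontal axis) for each of the 23 genes (rows), with the 95% interval from limma as a bar, 2 libraries per genotype. The interval of every gene except Atp5f1 (log2 difference 1.97) includes 0.

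The microRNA deleted in the knockout is shown with its seed, bases 2 to 8, in capitals, as RefSeq gives it for GRCm38.p6, because the genotypes differ in it.
mmu-miR-21a-5p: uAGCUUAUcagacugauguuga

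Libraries of the same genotype were also compared by gene group. Wild-type replicate 1 was above replicate 2 in 18 of 23 genes, where 74.4% of tested genes were, and knockout replicate 3 was above replicate 1 in 13 of 23, where 46.2% were. Respiratory chain and transport genes mostly had wild-type replicate 1 above replicate 2 together with knockout replicate 3 above replicate 1. Mitochondrial ribosome genes mostly did not, and neither did most tested genes. Both orders held for 5 of 8 respiratory chain genes, 5 of 6 transport genes and 2 of 9 mitochondrial ribosome genes (Mrpl27 and Mrpl51), where 42.8% of tested genes showed them. Both reverse orders held for Ndufa12, Mrpl22, Mrps5 and Mrps9, where 22.2% of tested genes showed them. With the caerulein libraries scaled by their median ratio, the counts for the first pattern were 6 of 8, 4 of 6 and 3 of 9, with 38.3% of tested genes, and 5 of 23 genes showed both reverse orders, with 34.2% of tested genes. The difference between groups of genes was not tested.

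**Figure D3:**
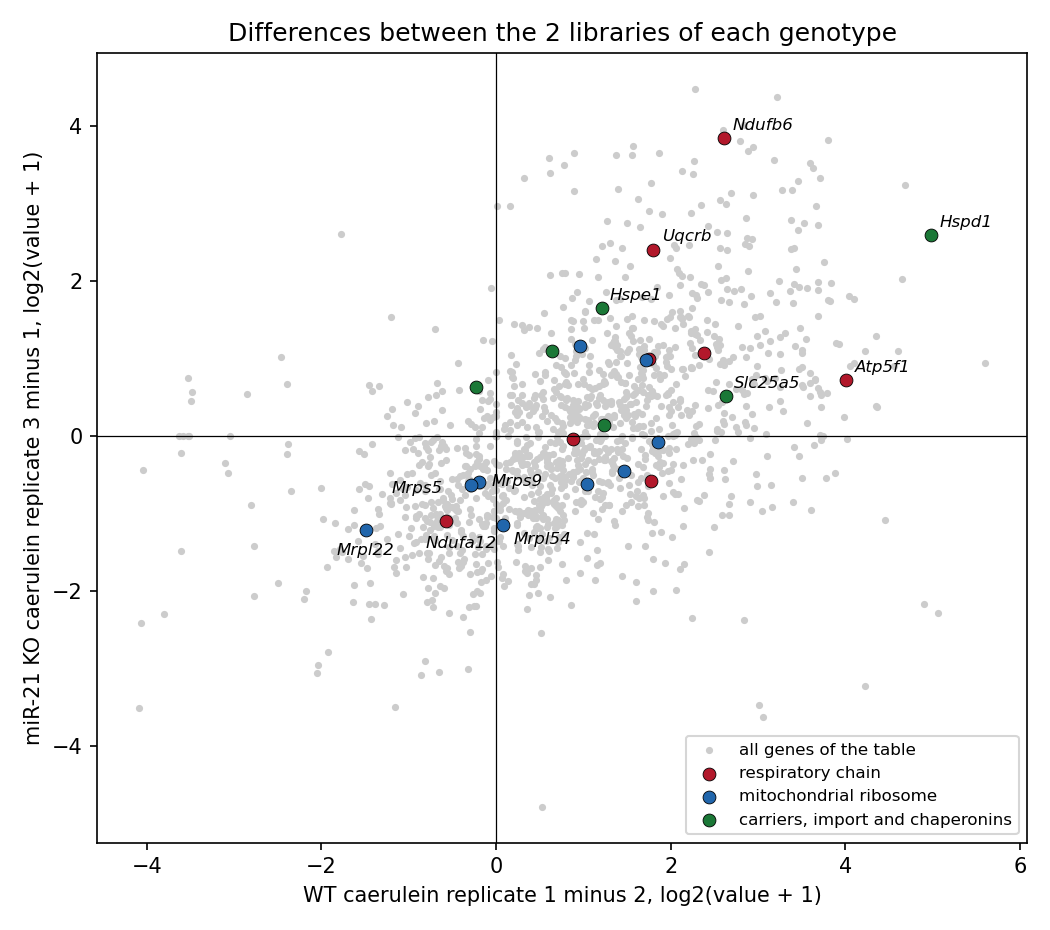
Difference between the wild-type caerulein libraries (horizontal axis, replicate 1 minus 2) and between the knockout caerulein libraries (vertical axis, replicate 3 minus 1), both in log2(value + 1), for the 23 genes in colour and all genes of the table in grey. Ndufb6 and Hspd1 lie far to the upper right, and Mrpl22, Ndufa12, Mrps5 and Mrps9 to the lower left.

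Between the knockout libraries the median log2 difference (replicate 3 minus 1) was 0.85 for the respiratory chain, 0.86 for transport and −0.60 for the mitochondrial ribosome, with −0.09 for all 1457 genes. Between the wild-type libraries (replicate 1 minus 2) the medians were 1.79, 1.23 and 0.97, with 0.88 for all genes. Wild-type replicate 2 held the lowest caerulein value for 14 of the 23 genes, where 52.4% of tested genes had their lowest value there. Knockout replicate 3 held the highest for 10 of the 23, where 16.5% of tested genes had their highest value there. It was the highest library for 4 of 8 respiratory chain genes, 4 of 6 transport genes and 2 of 9 mitochondrial ribosome genes, and for 8 of 12 cytosolic ribosomal protein and 2 of 12 proteasome genes. Of 12 cytosolic ribosomal protein genes 9 showed the first pattern, as did 8 of 12 proteasome genes.

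Over the 21 genes above 0.01 in all caerulein libraries, the highest was 1.62 to 41.6 times the lowest, with a median of 2.95. The median was 3.18 for the 1344 tested genes of that kind. Across 1411 tested genes with a GENCODE M21 transcript, Spearman's rho with transcript GC content was −0.24 for the wild-type difference and −0.20 for the knockout difference, and with transcript length 0.01 and −0.01. Median GC was 49.1% for the respiratory chain, 49.7% for the mitochondrial ribosome and 47.7% for transport genes. The part of GC content in these orders was not tested.

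Markers of other cells were compared in the same way, and the limit set by how the table was made holds for them too. Of 16 macrophage marker symbols 8 were in the table. A symbol missing from the table was not shown to be undetected. The summed values of the 8 were 3.18 in saline, 311.7 to 432.69 in the wild type and 365.71 to 393.4 in the knockout. Laptm5 was the largest part, at 167.2 and 207.34 in wild-type replicates 1 and 2 and 213.33 and 180.11 in knockout replicates 1 and 3. In the wild type Laptm5 and Ly6c2 were higher in replicate 2, and the other genes of the list in replicate 1. Limma called 6 (wild type) and 7 (knockout) of the 8 higher than saline, where 57.3% and 60.3% of tested genes were called higher. These shares apply to all marker lists below. Emr1, Mrc1, Cd163 and Ly6c2 were at 0.01 in saline. Of 14 stellate cell symbols 5 were in the table. They summed to 1.72 in saline, 95.57 to 704.44 in the wild type and 139.72 to 322.27 in the knockout. In each genotype 4 were called higher, and Pdgfrb and Fn1 were at 0.01 in saline. Of 14 proliferation symbols 7 were in the table, summing to 5.12, then 102.63 to 120.04 and 76.62 to 162.51. Of these 6 and 5 were called higher, and 4 (Top2a, Birc5, Plk1 and Mcm3) were at 0.01 in saline.

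Of 22 acinar symbols 3 were in the table, summing to 10.84 in saline. After caerulein their sums were 947.71 and 29.21 in the wild type (replicates 1 and 2) and 298.53 and 605.15 in the knockout (replicates 1 and 3). Of these Prss3 and Klk1 rose in both genotypes and Prss1 was at 0.01 in all wild-type libraries. The acinar and stellate sums were thus higher in wild-type replicate 1 and knockout replicate 3 than in the other library of the genotype. In the knockout the stellate difference lay mainly in the collagen gene Col3a1 (73.25 in replicate 1 and 271.09 in replicate 3), while Fn1 was 26.42 and 8.08 and Postn 32.83 and 32.67. In whole pancreas, fewer cells of a type and less RNA per cell cannot be told apart, and the part of these cell types in the results was not tested. The other 7 marker lists (ductal, neutrophil, lymphocyte, endothelial, islet, erythroid and adipocyte) had 1 to 2 genes each in the table, 9 in all. Of these 3 rose in the wild type, and 3 rose and 1 fell in the knockout, where 0.14% of tested genes were called lower.

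Other genes of mitochondria were taken from 9 lists of 186 symbols, of which 20 were in the table. Again, symbols outside the table were not shown to be undetected. Limma called 10 of the 20 higher in the wild type and 11 in the knockout, against 57.3% and 60.3% of tested genes, 0 lower, and 0 between genotypes. In fatty acid oxidation 3 of 5 rose in each genotype. Acadl, a long-chain acyl-CoA dehydrogenase, was 1.21 in saline, 37.81 and 17.98 in the wild type and 37.59 and 24.73 in the knockout, and Hadha, a subunit of the trifunctional protein, was 2, 33.63 and 13.96, and 32.45 and 16.45.

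In the citric acid cycle list 3 genes were in the table. Dlat, a pyruvate dehydrogenase subunit, rose in both genotypes and Suclg2, of succinyl-CoA synthetase, in the knockout. Dld, a subunit shared by several dehydrogenases, did not pass and was 3.77 in saline, 11.99 and 0.01 in the wild type and 0.37 and 8.01 in the knockout, a spread in the same direction as Ndufb6. Among 3 genes of mitochondrial translation and the nucleoid, Lrpprc, which stabilises mitochondrial messages, and Tfb2m, a mitochondrial transcription factor, rose in both genotypes. Lrpprc was 0.34 in saline, 8.2 and 13.91 in the wild type and 18.42 and 12.94 in the knockout. Tfb2m was 0.01, 6.52 and 11, and 11.17 and 4.66, with the high libraries those of Mrpl22.

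Of 2 chaperone or protease genes Grpel2 rose in both genotypes and Phb, prohibitin, in the knockout. Of 3 genes of dynamics, mitophagy and apoptosis, Bnip3l, a mitophagy receptor, and Bak1, a pore-forming killer protein, rose in both, and Opa1 in neither. Of 3 antioxidant genes Sod2, the matrix superoxide dismutase, rose in the wild type, and Prdx3 and Glrx2 in neither. The regulator Ppard was 3.17 in saline, 11.61 and 32.04 in the wild type and 32.14 and 11.64 in the knockout, and did not pass. In glycolysis, the cytosolic route to ATP, 3 of the 4 genes in the table rose in each genotype (Gpi1, Tpi1 and Pgam1). Of these lists, the 22 symbols encoded in mitochondrial DNA and the 24 assembly factors gave 0 matches in the table.

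Among the other genes whose log2(value + 1) profile over the 5 libraries lay nearest to the mean profile of the 23 (Euclidean distance) were Net1, Cct2, March5 and Cr1l, at distances of 0.21 to 0.55. Net1 was 0.91 in saline, 23.2 and 9.18 in the wild type and 17.28 and 22.77 in the knockout. The mean log2 levels of the 23 genes were 1.08 in saline, 4.69 and 3.37 in the wild type and 4.07 and 4.56 in the knockout.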

How the data were processed

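Poly(A) RNA was fragmented, reverse transcribed with random primers and sequenced on an Illumina instrument, per the labels' protocols. Bowtie 0.12.2 and build mm8 are named in the submitters' processing notes; how genes were annotated, quantified and normalized is not given in the sources used here. Each deposited file lists 1 signal value per gene symbol, with no unit, and 1 blank row (5 in all), which was left out. Low values were searched for a step of whole reads. At best 26% to 50% of values fell on multiples of a step that shrinks with transcript length (tolerance 0.1 of a step). The lengths came from GENCODE M21 and those behind the deposited values are unknown, so this search cannot show that no step exists. Read depth is unknown. Values summed to 2818 in saline and 23255 to 38628 in the caerulein libraries.

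Tests used log2(value + 1) with no further scaling. Log2 differences understate changes of low genes. Testing needed a value of 1 or more in 2 or more libraries, which 1429 of 1457 genes and all 23 members met. With limma 3.58.1 in R 4.3.3, a model of group means and a trended, robust variance was fitted to the whole table of 5 libraries, and p-values were adjusted by Benjamini-Hochberg within each comparison. Its 2 residual degrees of freedom come from the caerulein groups, so saline is assumed to vary like them. The planned branch for normalized values was used. The limma fit of knockout against wild type was tested on simulated data, and the comparisons with saline were not. Members, lists and tests were chosen with earlier results of these data known. By the naming rule each class gives up to 4 members with the highest caerulein mean, the 5 smallest p-values between genotypes, and members at 0.01 or without overlap; Mrpl43 and Mrpl44 were added after their values were seen, as were the choice of 8 genes with fitted differences from saline and of the printed promoters. RefSeq symbols matched 22 members directly and 1 as a synonym. Alternatives were other scalings, filters, pseudocount, variance and groups, and leaving out each caerulein library. Python 3.11.15 was used for descriptions and figures. A nearest-profile gene and a search for microRNA sites are not reported here.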

Additional observations from a re-analysis of the deposited data

How the results depend on the processing

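No paired analysis was possible because no pairing of the libraries is given. The wild-type and knockout caerulein groups share only replicate number 1, which is not stated to mark a pair. The differences from saline depended on scaling. Quantile normalization left 0 of 23 genes called in either genotype, with medians of 0.29 (wild type) and 0.38 (knockout) in place of 2.88 and 3.19. Equal sums, set without the 20 most abundant genes, left 5 called in each, with medians of 0.29 and 0.60. All of these calls were for genes at 0.01 in saline, except Mrpl54 in the knockout. Both make the saline library match the rest by construction: the median of all tested genes became 0.05 (wild type) and 0.07 (knockout) under quantile normalization and 0.83 and 0.86 under equal sums. Of the 23 genes, 9 in the wild type and 5 in the knockout turned below saline under quantile normalization, and 9 and 4 under equal sums. Of the 8 genes with printed differences, under quantile normalization Atp5c1 in the knockout (−0.0448) and Hspe1 in the wild type (−0.0420) turned below saline. Under equal sums so did Atp5c1 in the knockout (−0.28), and in the wild type Hspe1 (−0.45), Cox7a2l (−0.12) and Slc25a5 (−0.23). A pseudocount of 0.1 gave medians of 3.53 and 3.91. Fitting only the 2 groups compared gave 10 calls in the wild type (479 of 1336 tested genes), with fewer samples behind the variance. Leaving out single libraries moved the wild-type calls between 8 and 20 (medians 2.23 to 3.29) and the knockout calls between 2 and 21 (medians 3.02 to 3.53), with 1 residual degree of freedom in such fits. Between genotypes, calls stayed at 0 in all alternatives that kept every caerulein library. Without wild-type replicate 1, the differences of Atp5f1 and Hspd1 were 3.98 and 3.85, against a single wild-type library at 0.01. Their differences were −0.0308 and −1.12 without wild-type replicate 2. The median between genotypes ran from −0.38 to 0.87 over the libraries left out. Depth is unknown, so no counting error can be attached to low values.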
